A study of Mus musculus with 36 samples.

Results

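Cardiomyocytes, the contracting muscle cells of the heart, were compared between day 14 and day 3 after an ischemia-reperfusion (IR) injury. The mice were male C57BL/6 of 8 weeks, and the infarcted part of the left ventricle was used. In the IR groups the left anterior descending artery was tied for 1 hour and then released, and cells were taken 3 days (IR 3D) or 14 days (IR 14D) later. Sham surgery groups of day 1 and day 14 (Sham 1D and Sham 14D) served as background and no sham group of day 3 was used here. Single cells were sorted into 384-well plates and sequenced with SORT-seq, which tags each captured transcript with a unique molecular identifier (UMI). Levels are given as CPM, the UMIs of a gene scaled to a total of 1000000 over the cardiomyocyte wells of a plate, with mitochondrial and spike-in rows left out.

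A well was counted as a cardiomyocyte when it held at least 1000 UMIs, when 8 cardiomyocyte genes (Myh6, Actc1, Tnnt2, Tnni3, Tnnc1, Myl2, Myl3 and Mb) made up at least 5% of them, and when 8 endothelial genes (Pecam1, Cdh5, Egfl7, Kdr, Emcn, Cav1, Ly6c1 and Fabp4) stayed under 0.6%. On the plates of the 2 days that held at least 10 such wells, 532 wells met this rule, out of 1084 wells with at least 1000 UMIs on all plates of these days and 3146 in the whole series. The 4 IR 3D plates (replicates 4, 5, 6 and 7) gave 117, 13, 15 and 49 wells, 194 in all. The 3 IR 14D plates (replicates 1, 2 and 3) gave 174, 71 and 93 wells, 338 in all. The other 3 IR 3D plates held 2, 0 and 4 such wells and were left out of the gene comparison. Just inside the limit, with the cardiomyocyte genes at 5 to 6% of UMIs, stood 40 wells of day 3 and 32 of day 14, and just outside it, at 4 to 5%, stood 43 and 21 wells. The summed wells held 714581, 32283, 58864 and 161968 UMIs on the day 3 plates and 695573, 264449 and 400395 on the day 14 plates, so that IR 3D replicates 5 and 6 were the shallowest. The median well held 1676 to 3192 UMIs at day 3 and 1887 to 2803 at day 14. No source ties a plate to a mouse, so p values measure the spread between plates, which may be technical.

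Libraries that share cells were looked for before any comparison. All plates use the same 384 well barcodes by design. On IR 3D replicate 6, 17 wells matched the well of the same number on Sham 14D replicate 2, and 3 of these were among its 15 cardiomyocyte wells. Without the matching wells the number of genes past the threshold was 150 in place of 151. Sham 14D replicates 2 and 7 matched each other in most of their wells and were summed to 1 plate, leaving 4 Sham 1D and 4 Sham 14D plates with 414 cardiomyocyte wells as background, a number in which the 19 wells of each of these matching plates are both counted.

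The marker genes given for the cells were high on every plate. Myh6, the main myosin heavy chain of the adult mouse ventricle, stood at 13956, 14621, 16258 and 8792 CPM on the day 3 plates and at 21539, 28172 and 17920 on the day 14 plates. Tnnt2, cardiac troponin T, stood at 12861, 15395, 16937 and 16528 at day 3 and at 13173, 11726 and 11901 at day 14. Both genes served to choose the wells, so these levels are given as a description and nothing is read from them.

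An adult cardiomyocyte draws most of its energy from fatty acids burned in mitochondria and contracts through a sarcomere driven by calcium cycling. After injury, surviving cells near the infarct are known to turn on a stress program with fetal sarcomere and natriuretic peptide genes, cytoskeletal genes and small protective proteins. Meanwhile macrophages enter the tissue, take up debris of dead cells, and decline in number as the scar forms. RNA freed from broken cells can enter wells that hold another cell, so the level of every gene tested was also taken in the macrophage wells of the same day 3 plates.

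Sprr1a, Lcn2 and Nmrk2 fell from day 3 to day 14 and stood far lower in macrophage wells than in cardiomyocyte wells. They are shown with the 250 bases before the start that the RefSeq promoter table gives. Sprr1a encodes a small proline-rich protein known from the cornified envelope and induced in stressed cardiomyocytes. Lcn2 encodes lipocalin 2, a secreted protein that binds iron-carrying siderophores. Nmrk2 encodes a nicotinamide riboside kinase of muscle that feeds NAD synthesis. The sequences are from RefSeq (GRCm38.p6, minus strand, 5′ to 3′), at chr3:92485882-92486131 for Sprr1a, chr2:32387740-32387989 for Lcn2 and chr10:81202038-81202287 for Nmrk2. For Sprr1a and Lcn2 the window ends where the gene begins, while for Nmrk2 the table uses a start inside the gene (81198170-81202265), so that 228 of the 250 bases lie within it. Capitals mark matches on either strand to TGANTCA (the AP-1 type), TGACNTCA (the CRE-like type) and TTNNGCAA (the C/EBP-like type).
Sprr1a: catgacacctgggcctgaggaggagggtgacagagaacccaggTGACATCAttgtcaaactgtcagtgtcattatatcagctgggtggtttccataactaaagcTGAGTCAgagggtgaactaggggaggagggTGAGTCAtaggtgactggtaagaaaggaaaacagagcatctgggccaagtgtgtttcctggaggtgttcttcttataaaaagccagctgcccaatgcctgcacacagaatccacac
Lcn2: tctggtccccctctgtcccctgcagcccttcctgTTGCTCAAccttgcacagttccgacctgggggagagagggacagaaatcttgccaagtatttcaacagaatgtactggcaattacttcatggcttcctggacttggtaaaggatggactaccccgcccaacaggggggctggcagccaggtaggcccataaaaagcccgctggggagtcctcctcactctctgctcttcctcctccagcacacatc
Nmrk2: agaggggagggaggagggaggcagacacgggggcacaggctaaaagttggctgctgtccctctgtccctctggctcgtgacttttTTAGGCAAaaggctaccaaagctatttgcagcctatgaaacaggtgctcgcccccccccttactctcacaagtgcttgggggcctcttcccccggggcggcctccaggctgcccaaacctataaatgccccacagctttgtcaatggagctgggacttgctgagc
The window of Sprr1a held 2 matches to TGANTCA, which begin at -146 and -116 from the start, and 1 to TGACNTCA, at -207. Those of Lcn2 and Nmrk2 held 1 match each to TTNNGCAA, at -216 and -165. Among 32817 promoter windows of the same length, 6.75% held TGANTCA at least once and 0.34% held it 2 times or more, 7.49% held TGACNTCA and 9.57% held TTNNGCAA. A match is a run of letters and does not show that a factor binds there.

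Across all genes the days differed in 151 of 3272 genes tested (4.61%), by edgeR's quasi-likelihood test on the summed wells at an adjusted p under 0.05. Of these, 58 were higher at day 14 (1.77%) and 93 were lower (2.84%), the shares against which the lists of genes below are set. Genes that chose the wells stayed in the fit, and the 58 include 1 of them, Myh6, whose call is not a finding. The plates of the days did not overlap at all in 165 genes with the higher levels at day 14 (5.04%) and in 270 with the lower ones (8.25%). Of the 93 lower genes, 39 stood at 10 times or more their cardiomyocyte level in the macrophage wells of day 3, 35 stood at 1 to 10 times, and 19 stood below 1, where Sprr1a, Lcn2, Nmrk2, Clu and Tfrc were. Col3a1, a fibroblast marker, was also among the 19, at 0.881 times, so a level below 1 does not by itself mark a cardiomyocyte gene. Among all genes tested 61 (1.86%) reached 10 times. None of the 58 higher genes did, and 34 of them stood below 1. The number of calls leaned on IR 3D replicates 4 and 7: without the first it was 61 and without the second 84, while leaving out any other plate gave 122 to 185.

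Sprr1a, on chromosome 3 (92483954-92485881, GRCm38.p6), had the largest fall among genes below their cardiomyocyte level in macrophage wells. It stood at 368.0, 92.9, 135.9 and 339.6 CPM on the day 3 plates and at 0.0, 0.0 and 2.5 on the day 14 plates. Every day 3 plate was above all 8 sham plates, which ranged from 0.0 to 10.2, and no day 14 plate was. In UMIs this was 329 at day 3 against 1 at day 14, a ratio of 463 with a 95% counting interval of 82.4 to 18300, and the fitted log2 difference was -7.96 ± 0.66 (SE, edgeR adjusted p = 3.72e-08). A single well of IR 3D replicate 4 held 157 of these UMIs (47.7%). Without it the log2 difference was -7.43 (edgeR adjusted p = 2.67e-07). At least 1 UMI was seen in 67 of 194 wells of day 3 (34.5%, exact 95% interval 27.9 to 41.7) and in 1 of 338 of day 14 (0.3%, 0.0 to 1.6). In the macrophage wells of day 3 it was 46 of 177 (26.0%), at a median depth of 9292 UMIs against 2663 and 2319 in the cardiomyocyte wells of day 3 and day 14. Thinned to 1000 UMIs per well, a UMI was expected in 33.1 of the day 3 cardiomyocyte wells (17.0%), in 0.1 of those of day 14 and in 7.8 of the macrophage wells (4.4%), as the mean over all possible draws. These intervals cover counting error only.

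Lcn2, on chromosome 2 (32384637-32387739), stood at 179.1, 31.0, 101.9 and 148.2 CPM at day 3 and at 4.3, 0.0 and 0.0 at day 14. The days did not overlap, with 159 UMIs against 3, a ratio of 74.5 (95% counting interval 25 to 365) and a log2 difference of -5.78 ± 0.59 (SE, edgeR adjusted p = 4.46e-07). All 3 day 14 UMIs of Lcn2 were on replicate 1, and without that plate the fitted log2 difference was -8.24, which is no bound. The sham plates did not form 1 background for it: the mean was 182.6 ± 106.3 (SD, n = 4) in Sham 1D and 4.3 in Sham 14D, and no IR plate was above the highest sham plate, 274.0. Nmrk2, on chromosome 10, stood at 92.4, 31.0, 118.9 and 86.4 at day 3 and at 28.8, 3.8 and 7.5 at day 14, which does not overlap. For Lcn2 and for Nmrk2 the 31.0 CPM of IR 3D replicate 5 is 1 UMI. The 28.8 of Nmrk2 on IR 14D replicate 1 is 20 UMIs, so that its plates stay apart by this 1 UMI. Nmrk2 fell by 2.35 ± 0.46 (SE) on the log2 scale (edgeR adjusted p = 0.00174), and 3 of the 4 day 3 plates were above all sham plates. Without IR 14D replicate 1 the difference of Nmrk2 was -3.64, and without IR 3D replicate 4 neither gene had enough UMIs to be tested. In macrophage wells Lcn2 and Nmrk2 stood at 0.0258 and 0.0373 times their cardiomyocyte level.

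Tfrc, on chromosome 16 (32608896-32632794), encodes the transferrin receptor that brings iron into cells. It stood at 309.3, 309.8, 322.8 and 438.4 CPM at day 3 and at 46.0, 113.4 and 74.9 at day 14, and all 4 day 3 plates were above all sham plates (26.9 to 167.9). It fell by 2.17 ± 0.30 (SE) on the log2 scale (edgeR adjusted p = 4.09e-05) and kept its call in all 22 alternatives run. Clu, on chromosome 14 (65968483-65981548), encodes clusterin, a secreted chaperone, and is far more abundant. It stood at 5827, 8828, 5317 and 4235 at day 3 and at 2976, 2605 and 2265 at day 14, a log2 difference of -1.04 ± 0.23 (SE, edgeR adjusted p = 0.00554). All 4 day 3 plates and no day 14 plate were above the highest sham plate, 3545. The mean of Clu was 2606 ± 798 in Sham 1D and 1369 ± 93.4 in Sham 14D (SD, n = 4 each). The IR 14D plates all stood above this Sham 14D mean. Cryab, alpha-B crystallin, a small heat shock protein of muscle, stood at 4836, 4801, 4349 and 5063 at day 3 and at 2858, 2091 and 2318 at day 14 (log2 -0.86 ± 0.22 SE, edgeR adjusted p = 0.0184), again with all 4 day 3 plates above all sham plates. Each of these 3 genes stood lower in macrophage wells, at 0.409, 0.0359 and 0.047 times. Clu and Cryab lost their calls in wells with under 0.1% macrophage markers (edgeR adjusted p = 0.205 and 0.0718, log2 -0.80 and -0.85), where 19, 10 and 16 day 3 wells of replicates 4, 5 and 7 were left. There Clu stood at 2471 CPM on IR 3D replicate 4 against 3040, 2586 and 2275 on the day 14 plates, so the days overlapped. Both calls were also lost without the filter on low counts. Cryab also lost its call without any 1 of IR 3D replicates 4 and 7 and of the 3 day 14 plates.

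**Figure D1:**
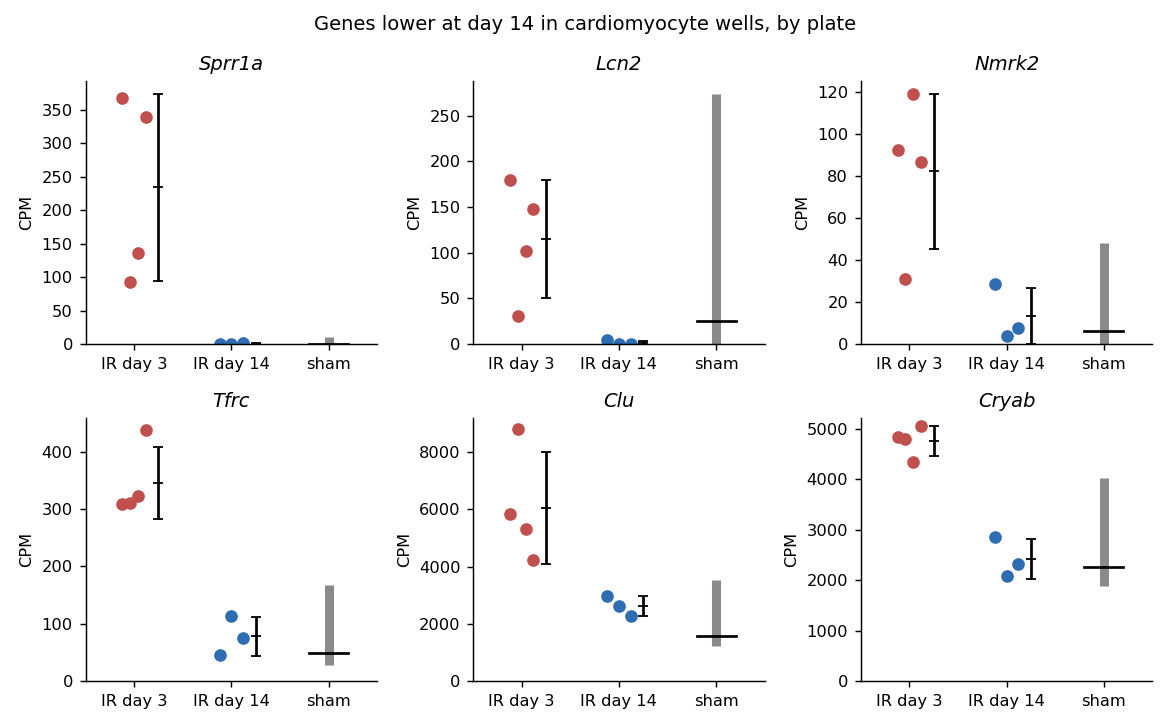
Levels of 6 genes that fell, in CPM on a separate axis for each gene. Each point is 1 plate (day 3 red, day 14 blue), bars give the mean and SD, and the grey bar is the range of the 8 sham plates with their median. For all 6 genes the 4 day 3 plates lie above the 3 day 14 plates, as for Tfrc at 309.3 to 438.4 against 46.0 to 113.4. The lowest day 3 point of Lcn2 and that of Nmrk2 is 1 UMI.

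The list of stress and fetal genes had 19 of its 28 members tested, of which 8 fell (2.84% of all genes tested did) and 1 rose (1.77% of all did), with a median log2 difference of -0.55 against 0.01 over all genes tested. Members near 0 at day 14, such as Sprr1a, Timp1 and Lgals3, had enough UMIs for the test only through the day 3 plates, so this count and median are a description, and the same holds for such genes in the other lists. Besides Sprr1a, Nmrk2, Clu and Cryab, the members that fell were Timp1, Uck2, Acta2 and Lgals3. Timp1, an inhibitor of matrix metalloproteinases, stood at 60.2, 92.9, 84.9 and 74.1 CPM at day 3 and at 2.9, 0.0 and 15.0 at day 14 (log2 -3.40 ± 0.61 SE, edgeR adjusted p = 7.29e-04). Uck2, a kinase of the pyrimidine salvage pathway, stood at 53.2, 31.0, 118.9 and 67.9 against 20.1, 26.5 and 10 (log2 -1.70 ± 0.47 SE, edgeR adjusted p = 0.0331), and its call was lost without IR 3D replicate 6 or 7 or IR 14D replicate 1 or 3, and could not be tested without IR 3D replicate 4. Acta2, smooth muscle actin, had a log2 difference of -0.92 (edgeR adjusted p = 0.0481). Lgals3, galectin 3, is a gene of phagocytes and stood 27.4 times higher in macrophage wells. It was the only 1 of the 19 that did, and the other 18 stood lower there.

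The classical stress genes of the ventricle did not pass the threshold between the days. Nppa, the atrial natriuretic peptide, overlapped widely between the days. It stood at 4210, 10346, 1682 and 2852 CPM at day 3 and at 3668, 647 and 6556 at day 14 (log2 -0.19 ± 0.49 SE, edgeR adjusted p = 0.902). Nppb, the brain natriuretic peptide, stood at 698, 2385, 748 and 1192 against 377, 635 and 777 (log2 -0.83 ± 0.32 SE, edgeR adjusted p = 0.177), and all 4 day 3 plates and 2 of 3 day 14 plates were above all sham plates. Myh7, the fetal myosin heavy chain, stood at 693, 279, 646 and 519 against 405, 726 and 889 (log2 0.36 ± 0.27 SE, edgeR adjusted p = 0.568), and 3 and 2 plates were above the highest sham plate, 452. The mean of Myh7 was 213 ± 160 in Sham 1D and 46.1 ± 37.6 in Sham 14D (SD, n = 4 each). Acta1, skeletal alpha-actin, stood at 136 to 774 against 378 to 627 (log2 0.51 ± 0.32 SE, edgeR adjusted p = 0.456). Ankrd1, a stretch-responsive protein of the sarcomere and nucleus, stood at 4296, 3593, 5317 and 4149 at day 3 and at 2851, 2341 and 2897 at day 14. Its plates did not overlap, but the difference missed the threshold (log2 -0.55 ± 0.21 SE, edgeR adjusted p = 0.172), and every plate of both days was above the highest sham plate, 2280.

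Xirp2, an actin-binding protein of the intercalated disc and Z-disc, was the member of the stress list that rose. It stood at 1285, 1425, 917 and 1451 CPM at day 3 and at 1914, 2208 and 2360 at day 14 (log2 0.88 ± 0.23 SE, edgeR adjusted p = 0.0221), and all 3 day 14 plates and no day 3 plate were above the highest sham plate, 1651. Its call held in 12 of 22 alternatives, and was lost without IR 3D replicate 4 or 6 or IR 14D replicate 2 or 3. Of 34 sarcomere genes tested, Xirp2, Myom2 and Myh7b rose, against 1.77% of all genes, none fell, and the median log2 difference was 0.16 against 0.01 over all genes. Myom2, a myomesin of the M-band, stood at 430, 217, 306 and 383 at day 3 and at 703, 802 and 435 at day 14 (log2 0.91 ± 0.25 SE, edgeR adjusted p = 0.0313). All 4 day 3 plates were below the lowest sham plate, 486, as was 1 day 14 plate. Its call was lost on leaving out any 1 plate of the 7 except IR 14D replicate 3. Myh7b, a further myosin heavy chain, rose by 1.46 ± 0.38 (SE) on the log2 scale (edgeR adjusted p = 0.0239), and its call was lost without IR 3D replicate 4 (log2 0.94, edgeR adjusted p = 0.355) or IR 14D replicate 3. None of 28 genes of junctions and costameres passed by edgeR or by DESeq2 (7 at an unadjusted edgeR p under 0.05), Gja1 (connexin 43) among them at 820.5 ± 339.1 against 515.5 ± 70.4 (SD, n = 4 and 3).

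Among 28 calcium handling genes tested, Hrc rose and Atp1b1 fell, and the median log2 difference was 0.11. Hrc, a calcium-binding protein of the sarcoplasmic reticulum, stood at 1283, 1859, 1869 and 1111 CPM at day 3 and at 2598, 2473 and 2090 at day 14, without overlap (log2 0.83 ± 0.21 SE, edgeR adjusted p = 0.0164). Its call was lost without IR 3D replicate 4 or 7 or IR 14D replicate 2. Atp1b1, a beta subunit of the sodium pump, stood at 900, 774, 510 and 895 CPM at day 3 and at 385, 427 and 400 at day 14 (log2 -0.88 ± 0.23 SE, edgeR adjusted p = 0.027). Its plates did not overlap either, with the higher levels at day 3, and its call was lost in 9 of 22 alternatives, among them without IR 3D replicate 4 or 7 or any 1 of the day 14 plates. Of others in the list, Atp2a2 (the calcium pump SERCA2a) had a log2 difference of -0.25 ± 0.23 (SE), Pln (phospholamban) 0.12 ± 0.21 and Ryr2 (the calcium release channel) 0.31 ± 0.22. None of 12 ion channel genes passed by either tool (4 at an unadjusted p under 0.05).

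Gapdh, a glycolytic enzyme, on chromosome 6 (125161852-125166467), stood at 452, 1115, 442 and 154 CPM at day 3 and at 1570, 1921 and 1261 at day 14. The days did not overlap (log2 1.94 ± 0.32 SE, edgeR adjusted p = 2.95e-04), and the call held in all 22 alternatives. The sham plates ranged from 245 to 1739, and 1 day 3 plate was below and 1 day 14 plate above them. It was the only 1 of 26 glycolysis genes that rose, and Pgam1 fell (log2 -0.95 ± 0.25 SE, edgeR adjusted p = 0.0264), a gene at 4.94 times in macrophage wells whose call was lost without IR 3D replicate 4 or 7 or any 1 of the day 14 plates. The call of Pgam1 held in 9 of 22 alternatives. It was also lost with DESeq2, without wells at 0.3% macrophage markers or 0.5% markers of other cells, and in wells under 0.1% macrophage markers. Gapdh has many near-identical pseudogenes, and how reads that fit several places were counted is not stated. The same holds for Actg1, Ftl1, Ptma, Tmsb4x, Tmsb10 and the ribosomal protein genes given below.

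Among 79 genes of oxidative phosphorylation, Ndufa13 (complex I) and Cox7a2 (complex IV) rose, a share near the 1.77% of all genes, and none fell. The median was 0.18 and 62 of the 79 stood above 0, while over all genes tested 1677 of 3272 did. Ndufa13 stood at 434, 527, 646 and 210 at day 3 and at 937, 719 and 819 at day 14 (log2 1.10 ± 0.24 SE, edgeR adjusted p = 0.00429). Cox7a2 overlapped between the days (log2 0.79 ± 0.23 SE, edgeR adjusted p = 0.0484). Of 41 fatty acid oxidation genes 33 stood above 0, with a median of 0.20. Acads and Acad9, acyl-CoA dehydrogenases, rose (log2 1.01 ± 0.28 and 1.42 ± 0.37 SE, edgeR adjusted p = 0.0395 and 0.0242), and Ucp2, an uncoupling protein at 7.16 times in macrophage wells, fell (log2 -3.84 ± 0.54 SE, edgeR adjusted p = 4.09e-05) with plates that overlapped, at 156.7, 0.0, 118.9 and 135.8 CPM against 15.8, 0.0 and 2.5. None of 29 genes of the citric acid cycle passed by edgeR or DESeq2 (4 at an unadjusted edgeR p under 0.05), and their median was 0.18. Ckm, muscle creatine kinase, rose by 0.94 ± 0.26 (SE) on the log2 scale (edgeR adjusted p = 0.0395), the 1 of 7 creatine genes past the threshold, with plates that overlapped: 1166, 2199, 1070 and 587 against 2507, 2034 and 1576. The calls of Cox7a2, Acads, Acad9 and Ckm were each lost without IR 3D replicate 4 and without IR 3D replicate 7, and each also without 2 or 3 of the day 14 plates, and that of Ckm without IR 3D replicate 6. Ucp2 could not be tested without IR 3D replicate 4, 6 or 7 and had a log2 difference of -5.93 without IR 14D replicate 1, and its call was lost with DESeq2 (adjusted p = 0.0553). Pdk4, which restrains glucose oxidation, stood at 93 to 195 against 202 to 463, without overlap, and missed the threshold (log2 0.86 ± 0.27 SE, edgeR adjusted p = 0.0761). Cd36 and Fabp3, of fatty acid uptake, had log2 differences of 0.06 ± 0.20 and 0.18 ± 0.21 (SE). Cpt1b had 0 UMIs on all 7 plates and 2 over the sham plates. Whether its reads were counted elsewhere was not tested, so this is not taken to mean that the gene is off.

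Ccnd2, cyclin D2, was the 1 of 5 cell cycle genes tested that passed. It stood at 182, 217, 51 and 130 CPM at day 3 and at 312, 435 and 280 at day 14 (log2 1.25 ± 0.27 SE, edgeR adjusted p = 0.00581), and all 3 day 14 plates were above the highest sham plate, 238. The call of Ccnd2 was lost in wells under 0.1% macrophage markers (log2 1.15, edgeR adjusted p = 0.0507) and with the cardiomyocyte genes at 10% or more of UMIs (log2 2.28, edgeR adjusted p = 0.0732). Of 22 transcription factors of the heart, Thra, a thyroid hormone receptor, rose (log2 1.50 ± 0.43 SE, edgeR adjusted p = 0.0453) from 31, 0, 17 and 12 to 58, 53 and 82. Its call rested on few UMIs, 25 and 87, and was lost on leaving out any 1 plate except IR 14D replicate 2 (log2 2.44, edgeR adjusted p = 0.0871, without IR 3D replicate 4). Zeb2, a zinc finger factor, did not reach the minimum for the test, with 25 UMIs at day 3 and 33 at day 14 (20.1 ± 14.8 against 23.3 ± 3.7 CPM, SD, n = 4 and 3). It stood 10.1 times higher in macrophage wells. At least 1 UMI of Zeb2 was seen in 11.9% of day 3 and 6.2% of day 14 cardiomyocyte wells and in 78.0% of the macrophage wells, at median depths of 2663, 2319 and 9292 UMIs. Thinned to 1000 UMIs per well, these shares of Zeb2 were expected at 2.5, 1.9 and 22.8%.

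**Figure D2:**
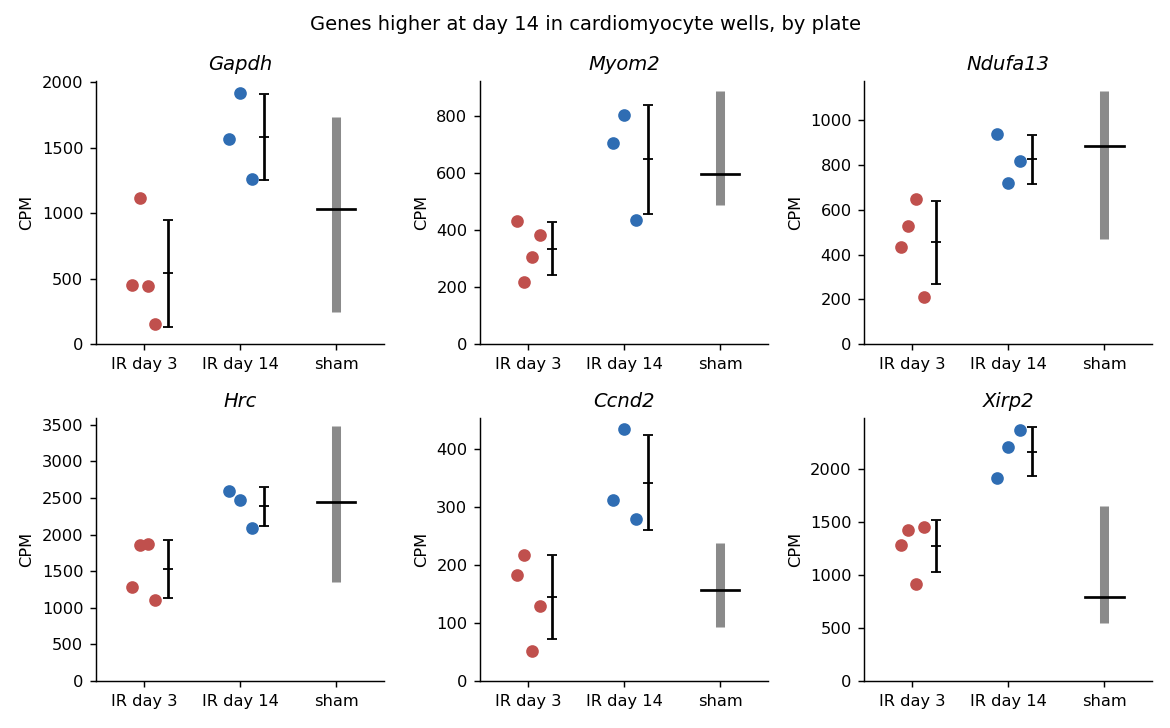
Levels of 6 genes that rose, in CPM on a separate axis for each gene. Each point is 1 plate (day 3 red, day 14 blue), bars give the mean and SD, and the grey bar is the range of the 8 sham plates with their median. For all 6 genes the 3 day 14 plates lie above the 4 day 3 plates, and for Ccnd2 and Xirp2 they also lie above the sham range.

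The largest rises by fold among called genes whose plates did not overlap lay outside these lists of heart genes. The 12 largest of them were Slfn9, Mageb16-ps1, Aplf, Gm7609, Gm10785, Cmah, Cxcr2, A130077B15Rik, F830016B08Rik, Vmn2r55, Kcnq1ot1 and Gm17821, with log2 differences of 2.13 to 3.38. They include pseudogenes, predicted genes and genes known from other tissues, such as Vmn2r55, a vomeronasal receptor. Kcnq1ot1, an unspliced antisense RNA of chromosome 7, was the most abundant, at 1269, 1580, 3839 and 2297 CPM at day 3 and 5337, 8720 and 12178 at day 14 (log2 2.14 ± 0.31 SE, edgeR adjusted p = 6.5e-05). Whether reads were counted by strand is not stated, so its reads cannot be told apart from those of overlapping genes. Their summed share of UMIs was 0.248, 0.328, 0.764 and 0.417% at day 3 and 1.05, 1.72 and 2.53% at day 14. The sham plates varied as widely, at 0.834 to 3.90% in Sham 1D and 0.27 to 1.01% in Sham 14D, and all 12 genes had a higher mean in Sham 1D than in Sham 14D. What differs between the plates here was not tested. In the list of RNA quality genes, Kcnq1ot1 was the 1 of 5 past the threshold.

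The check for macrophage RNA covered 28 macrophage markers. Their share of UMIs in the cardiomyocyte wells was 0.234, 0.050, 0.272 and 0.251% on the day 3 plates and 0.019, 0.008 and 0.011% on the day 14 plates. The days did not overlap (0.202 ± 0.103 against 0.0127 ± 0.00527%, SD, n = 4 and 3, exact permutation p = 0.0571, two-sided, which is the smallest that 4 against 3 plates can give; 0.133 adjusted over 7 marker lists). At least 1 macrophage UMI was found in 115 of 117, 8 of 13, 14 of 15 and 47 of 49 wells at day 3 and in 42 of 174, 13 of 71 and 28 of 93 at day 14. The defining markers were not at 0 in either group: Csf1r had 53 and 7 UMIs, C1qa 75 and 16, Cd68 81 and 2, Lyz2 56 and 1, and Tyrobp 52 and 7. The signal was spread over many wells at a low level, with 7, 0, 1 and 3 wells at 1% or more on the day 3 plates and 1, 0 and 0 on the day 14 plates.

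The day 3 plates also held more macrophages. Wells with at least 1% macrophage markers and under 2% of the cardiomyocyte genes numbered 81, 10, 12 and 74 at day 3 and 0, 0 and 6 at day 14. Wells with under 200 UMIs, which hold little or no cell, carried macrophage markers at 1.84, 1.15, 1.49 and 1.75% on the day 3 plates and at 0.021, 0.066 and 0.122% on the day 14 plates. In the day 3 cardiomyocyte wells, 27 macrophage markers had at least 10 UMIs, and all 27 stood at 3.41 to 7.72% of their level in the macrophage wells (median 5.26%). Of the 28 markers, 13 had enough UMIs to be tested, which they reached on the day 3 plates where they are high, and these 13 passed as lower. Over the 28 the UMIs ran from Spp1, at 303 and 0, to Cd74, at 38 at day 3 and 33 at day 14. Their part in the fall of other genes was not tested, and in these summed wells less macrophage RNA per well and fewer wells with such RNA cannot be told apart. No doublet caller was run.

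**Figure D3:**
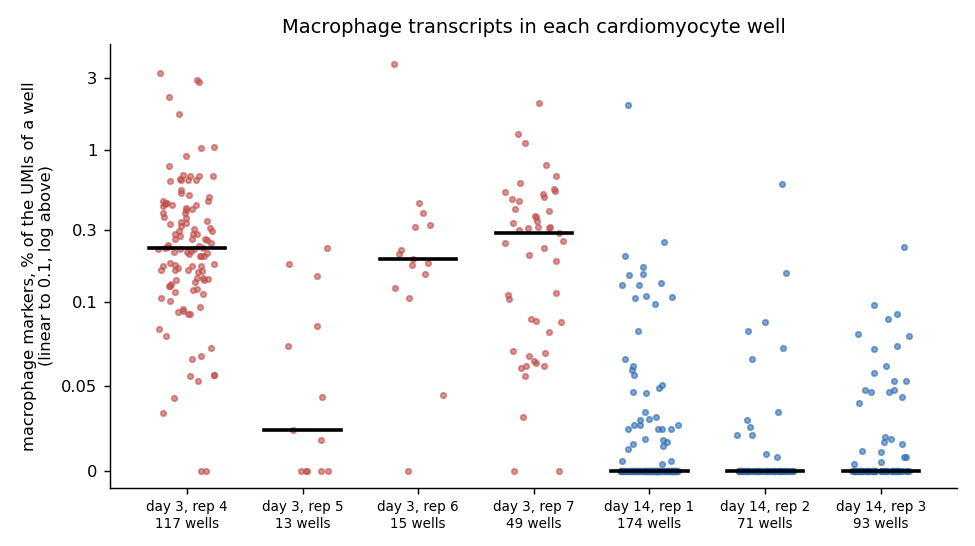
Share of UMIs from 28 macrophage markers in each cardiomyocyte well, in percent on a symmetric log axis, by plate. Each point is 1 well, day 3 red and day 14 blue, and black lines are medians. The axis is linear to 0.1% and logarithmic above. The median well stood at 0.226, 0.024, 0.191 and 0.286% on the day 3 plates and at 0% on all 3 day 14 plates.

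Spp1, osteopontin, and Ctss, cathepsin S, had the largest falls among the macrophage markers. Spp1 stood at 326.1, 31.0, 373.7 and 290.2 CPM at day 3 and had 0 UMIs at day 14, at least 142-fold lower, with a floor of 3 UMIs over the group (edgeR adjusted p = 3.72e-08). Ctss stood at 300.9, 31.0, 220.8 and 345.7 against 2.9, 0.0 and 2.5 (285 and 3 UMIs, ratio 134, 95% counting interval 45.2 to 651). For Spp1 and for Ctss the 31.0 CPM of IR 3D replicate 5 is 1 UMI. In macrophage wells they stood 29.4 and 19.6 times higher than in cardiomyocyte wells. Lyz1, Lgals3, C1qb, C1qc, Pf4, Stab1 and Wfdc17, further genes of macrophages among the 12 largest falls of called genes whose plates did not overlap, stood 13.2 to 27.4 times higher. Lyz1 and Lyz2 are near-identical copies, and the counts may split between them.

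Of 30 non-muscle cytoskeleton genes tested, 13 fell, against 2.84% of all genes, 0 rose, and the median log2 difference was -0.97 against 0.01 over all genes. In wells under 0.1% macrophage markers the median was -0.48, with 20 genes tested. Of the 30, 27 stood higher in macrophage wells than in cardiomyocyte wells. Tmsb4x, thymosin beta 4, which binds free actin, stood at 445.0, 278.8, 475.7 and 487.8 CPM at day 3 and at 96.3, 132.4 and 87.4 at day 14 (log2 -2.0 ± 0.25 SE, edgeR adjusted p = 1.2e-05), and at 19.5 times in macrophage wells. Vim, vimentin, stood at 305.1, 185.9, 220.8 and 277.8 against 53.2, 37.8 and 45.0, Cfl1, cofilin, at 466.0, 247.8, 254.8 and 524.8 against 100.6, 109.7 and 107.4, and Actg1, gamma actin, at 418.4, 309.8, 696.5 and 469.2 against 153.8, 71.8 and 132.4. Their log2 differences were -2.44, -1.90 and -1.83, and they stood 11.3, 8.14 and 8.74 times higher in macrophage wells. Ftl1, the ferritin light chain, fell by 2.17 ± 0.30 (SE) on the log2 scale (edgeR adjusted p = 3.62e-05), at 21.5 times. For each of these genes the day 3 and day 14 plates did not overlap.

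A list of 13 genes taken from the study, Zeb2 and secreted factors, had 10 members tested. Tmsb4x was the 1 that fell, none rose, the median was -0.70, and all 10 stood higher in macrophage wells. The median of the list was -0.21 without wells at 0.5% markers of other cells and -0.09 in wells under 0.1% macrophage markers, with 8 genes tested in each. The list was chosen by the study and is not independent evidence of a direction. Tmsb10 stood at 59.6 ± 42.8 against 24.1 ± 11.9 CPM (SD, n = 4 and 3, log2 -1.33 ± 0.45 SE, edgeR adjusted p = 0.104), Ptma at 77.0 ± 52.0 against 95.2 ± 22.8 (log2 0.07 ± 0.34 SE), and B2m, the light chain of MHC class I, at 260.8 ± 74.4 against 144.8 ± 24.7 (log2 -0.76 ± 0.23 SE, edgeR adjusted p = 0.0707). Of 7 MHC and interferon genes H2-D1 and Lgals3bp fell (2.84% of all genes did), and all 7 stood higher in macrophage wells. The call of H2-D1 was lost without IR 3D replicate 7 or IR 14D replicate 3. It was also lost without wells at 0.3% macrophage markers, without wells at 0.5% markers of other cells and in wells under 0.1% macrophage markers. Of 11 acute phase and metal genes Lcn2, Tfrc and Ftl1 fell, against the same 2.84%. Rps6 and Rpsa were the 2 of 71 ribosomal protein genes that fell, a share near the 2.84% of all genes, with a median of -0.19 over the list and 70 of the 71 genes higher in macrophage wells. The call of Rps6 was lost without IR 3D replicate 7 or IR 14D replicate 2 or 3, and that of Rpsa without the first 2 of these. Without wells at 0.3% macrophage markers, without wells at 0.5% markers of other cells and in wells under 0.1% macrophage markers, Rps6 lost its call and Rpsa kept it.

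Other housekeeping and stress lists held few calls. Of 40 translation factors Eef1b2 fell (log2 -0.99 ± 0.24 SE, edgeR adjusted p = 0.0136), and its call was lost without IR 3D replicate 7 or any 1 of the day 14 plates. Eef1b2 stood at 2.52 times in macrophage wells and kept its call in 12 of 22 alternatives. The losses include wells under 0.1% macrophage markers and the fit without wells at 0.5% markers of other cells. Cryab was the only 1 of 30 heat shock genes past the threshold. None of 35 proteasome genes, 5 immediate early genes and 13 hypoxia and angiogenic genes passed by edgeR or DESeq2 (1, 0 and 1 at an unadjusted edgeR p under 0.05), Vegfa among the last with 512 ± 296 against 389 ± 117 CPM (SD, n = 4 and 3). Of 17 genes of apoptosis and survival, Gpx1, glutathione peroxidase, and Txn1, thioredoxin, fell (log2 -1.38 ± 0.30 and -1.16 ± 0.28 SE, edgeR adjusted p = 0.00536 and 0.0132), at 14.1 and 4.03 times in macrophage wells. In wells under 0.1% macrophage markers both calls were lost (Gpx1 log2 -1.14 and Txn1 -0.94, edgeR adjusted p = 0.232 and 0.266), as they were without the filter on low counts, and that of Txn1 was also lost under other limits on the wells and without IR 3D replicate 7 or IR 14D replicate 2. Of 18 further cardiomyocyte genes that did not serve to choose the wells, Hrc and Ckm rose (1.77% of all genes did), none fell, and the median log2 difference was 0.30 against 0.01 over all genes.

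**Figure D4:**
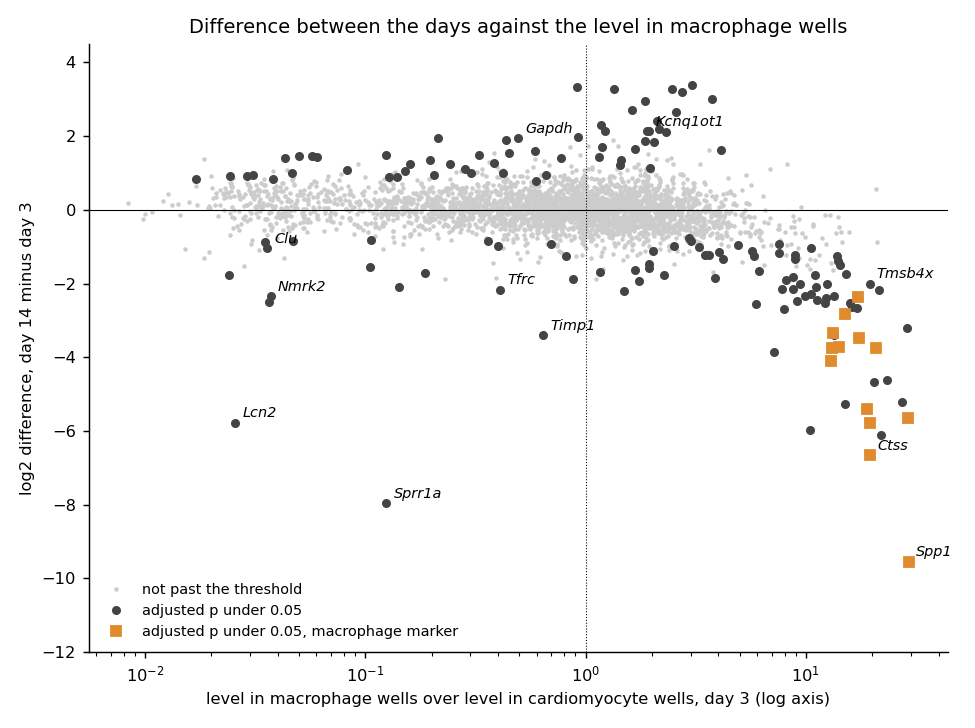
Log2 difference between the days (day 14 minus day 3) of all 3272 genes tested, against the level in day 3 macrophage wells over that in day 3 cardiomyocyte wells, on a log axis. Grey points missed the threshold, dark points passed it, and squares are macrophage markers that passed. Of the 61 genes at 10 times or more, 39 passed the threshold and were lower at day 14, Tmsb4x at 19.5 times and Spp1 at 29.4 times among them, and 0 were called higher, while Sprr1a, Lcn2 and Nmrk2 fell at 0.125, 0.0258 and 0.0373 times.

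The lower genes were counted again in wells with less macrophage RNA. Without wells at 0.3% macrophage markers or more, 19 of the 39 genes at 10 times or more in macrophage wells were still called lower, 19 of the 35 at 1 to 10 times, and 17 of the 19 below 1, where 26, 33 and 19 could be tested. In wells with under 0.1%, which left 51 calls in all, 9, 22 and 14 of them could be tested and 4, 4 and 8 were called. Of the 39 genes, 13 are macrophage markers on which these limits are set, so the counts of the 39 follow partly from the limits. The difference from the genes below 1 is therefore a description and not a test. Sprr1a, Lcn2, Nmrk2, Tfrc and Clu kept their calls under the first limit, at log2 differences of -7.95, -5.87, -2.60, -2.21 and -0.96. Under the second limit, Tfrc and Timp1 kept theirs (log2 -2.38 and -3.47, edgeR adjusted p = 3.14e-05 and 0.0103), and so did Gapdh, Ndufa13 and Hrc among the higher genes. Of the 61 named genes with a call, 45 could be tested there, 27 kept it and 18 lost it. Among those that lost it were the higher genes Acad9, Acads, Ccnd2, Ckm, Cox7a2, Myh7b, Myom2, Thra and Xirp2, while Sprr1a, Lcn2 and Nmrk2 had too few UMIs left to be tested. In these wells Sprr1a stood at 99.3, 36.4 and 271.4 CPM on the 3 day 3 plates left and at 0.0, 0.0 and 2.5 at day 14, and Lcn2 at 109.7, 36.4 and 212.4 against 4.6, 0.0 and 0.0. Nmrk2 stood at 83.6, 0.0 and 141.6 against 30.5, 3.8 and 7.5, which overlap. Tmsb4x, Actg1 and Ftl1 also kept their calls, at smaller differences of -1.34, -1.58 and -1.66.

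Markers of other cell types were measured in the same wells. Fibroblast markers made up 0.249 ± 0.111% of UMIs at day 3 and 0.113 ± 0.0748% at day 14 (SD, n = 4 and 3, exact permutation p = 0.171, 0.3 adjusted), and of 11 tested Col3a1 and Postn fell, with overlapping plates. The call of Postn was lost without IR 3D replicate 4 or IR 14D replicate 1. It was also lost without wells at 0.5% markers of other cells and in wells under 0.1% macrophage markers. With DESeq2 neither Col3a1 nor Postn passed. Endothelial markers stood at 0.0204 and 0.0265% (exact permutation p = 0.286) and mural markers at 0.038 and 0.0377% (exact permutation p = 0.8). Aqp1, a water channel of the endothelium, rose (log2 1.86 ± 0.48 SE, edgeR adjusted p = 0.0221) on 15 and 73 UMIs, and its call was lost without IR 3D replicate 7 and could not be tested without IR 3D replicate 4 or IR 14D replicate 1 or 3. Neutrophil markers stood at 0.00271 and 0.0125% (exact permutation p = 0.0571, 0.133 adjusted), with Cxcr2 at 15 and 147 UMIs, each of the other 11 markers at 0 to 5 and 0 to 2, and S100a8 and S100a9 at 0 at both days. Lymphocyte and erythrocyte markers had exact permutation p of 0.0571 and 0.629.

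Beyond genes, cardiomyocyte wells took a larger share of the plates at day 14. They were 18.2, 7.4, 44.3, 38.2, 34.9 and 24.3% of the wells with at least 1000 UMIs on the 6 day 3 plates with enough wells, and 81.3, 64.0 and 61.6% on the day 14 plates. The means were 27.9 ± 13.8 and 69.0 ± 10.8% (SD, n = 6 and 3). The rule itself sets this share, with Myh6 among its genes and the wells just outside its limit unevenly spread between the days, so it is a description with no test. The sort sets which cells reach a plate, so this is a share of sorted wells and not of the tissue. The mitochondrial share of transcripts in cardiomyocyte wells was 76.9 ± 3.88 against 79.1 ± 2.15% (SD, n = 4 and 3, exact permutation p = 0.457). The ribosomal transcript Rn45s took 16.9 ± 7.65 against 17.6 ± 2.29% of UMIs (exact permutation p = 0.914) and the plate medians of UMIs per well were 2180 ± 691 against 2226 ± 502 (exact permutation p = 1.0).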

How the data were processed

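Single cells of the infarcted region were measured with SORT-seq. Per the labels, the authors mapped reads with BWA to GRCm38/mm10 and deposited UMI counts per gene and well for 36 plates. The version of BWA, the annotation, strand use and the handling of reads that fit several places are not given in the sources used here. All values were whole numbers of at least 0. The 37 mitochondrial rows and 91 spike-in rows were left out, and no row lacked a gene name (0 found).

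Counts were summed over the cardiomyocyte wells of each plate, and the plate was the replicate. Genes were tested with edgeR 4.0.16 (R 4.3.3; filterByExpr, TMM, quasi-likelihood F test) with Benjamini-Hochberg adjustment over all 3272 genes at 0.05. Log2 differences are day 14 minus day 3. Fewer UMIs give a wider error. Data were simulated at these depths with the same spread between plates for every gene. There 86% of log2 changes of 2 and 40% of log2 changes of 1 were recovered, with 1 false call among 127. Spread that differs between genes, and single wells or plates that stand apart, were not simulated, so these rates may not hold for the measured genes. For plate measures other than the share of cardiomyocyte wells, the exact permutation test was two-sided. Marker shares are percentages of a plate's summed UMIs, and the mitochondrial share and UMIs per well are medians over its wells. Gene lists were described by counts and medians, without a set test and without the 16 genes that chose the wells. Genes were named as follows: the 12 largest changes in each direction among genes past the threshold whose plates did not overlap, up to 4 genes with the smallest p in each list, and a set of genes named beforehand. Further macrophage markers are given for the check. The members, lists and rule were chosen with earlier results of these data known. Copies of wells were searched by correlating wells of the same number over 1260 pairs of plates, and exact intervals are Clopper-Pearson.

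Alternatives covered scaling (RLE), DESeq2 1.42.0, filters, well rules, thinning to 1000 UMIs (1 random draw), a fit over all groups and each plate left out. Chosen after seeing the data were 3 more: without copied wells, wells under 0.1% macrophage markers, and without the well with most Sprr1a. The result of 1 gene is not reported here.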

Additional observations from a re-analysis of the deposited data

Results flagged for a closer look

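In 6 of 89 groups of day 3 plates 1 plate stood apart from the other 3 by Dixon's criterion, where chance gives about 5% of groups. IR 3D replicate 6 was high in A130077B15Rik (305.8 CPM) and in Acad9 (101.9). IR 3D replicate 7 was high in Tfrc (438.4) and in Lgals3bp (129.7). IR 3D replicate 5, the plate with the fewest UMIs, had 0.0 of Aqp1. IR 3D replicate 4 was the only day 3 plate with a lymphocyte marker UMI share above 0, at 0.001%.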

How the results depend on the processing

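No paired analysis was possible because the plates compared share no replicate number: IR 3D replicates 4 to 7 stand against IR 14D replicates 1 to 3. The count of 151 genes (58 higher, 93 lower) was 234 without a filter on low counts (100 and 134), 232 with at least 20 wells per plate (91 and 141), 79 in wells thinned to 1000 UMIs (38 and 41), 101 without wells at 0.3% macrophage markers (45 and 56), 78 without wells at 0.5% markers of other cells (42 and 36), 51 in wells under 0.1% macrophage markers (33 and 18) and 12 with the cardiomyocyte genes at 10% or more (5 and 7), where 1 day 3 plate was left and is assumed to vary like the others. DESeq2 gave 111 (37 and 74). Without 1 plate the counts ran from 61 to 185, with 27 to 74 higher and 34 to 118 lower, and the other settings gave 102 to 151. The share of higher calls moved from 38.4% to 53.8% and 64.7% under the limits on other markers and on 0.1% macrophage markers, and to 49.7% without IR 14D replicate 1. Scaling moved the median of all genes by under 0.1, and no filter moved it to 0.18.

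Of 61 named genes past the threshold, 14 lost their calls and 14 could not be tested without IR 3D replicate 4 (edgeR adjusted p of the lost calls 0.0525 to 0.355), and 17 lost them without IR 3D replicate 7 (0.0521 to 0.216), against 2 to 14 for each other plate. Over 1585 pairs of a gene and an alternative, 1340 kept direction and side of the threshold, 212 lost the call, 8 gained it and 25 turned sign, all 25 in 7 genes that had no call. Nppa turned to 0.04 without a filter, 0.06 with 20 wells, 0.23 with 2000 UMIs per well, 0.20 without other markers, 0.46 under 0.1% macrophage markers and up to 0.38 without 1 plate (-0.98 to 0.38). Vegfa (main log2 -0.09) turned to 0.08, 0.35, 0.33 and 0.20 under the first 4 of these, 0.02 when thinned, and ran from -0.36 to 0.28 without 1 plate. Ptma turned to -0.10 with 20 wells, -0.29 with 2000 UMIs and -0.15 when thinned, and ran from -0.11 to 0.31 without 1 plate. Myh7 turned to -0.10 when thinned, Cd36 to -0.00 with 20 wells and -0.16 with the 10% rule, Ryr2 to -0.06 and Ankrd1 to 0.00 under the latter.

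The difference in the cardiomyocyte share of wells was 34.9 to 44.8 percentage points without 1 plate. Small differences turned sign: UMIs per well ran from -242 to 384 without 1 plate and was -407 with 2000 UMIs per well, the Rn45s share from -2.18 to 3.89 and -4.94, the erythrocyte share from -2.02e-05 to 0.00115 and -0.000258, and the mural share from -0.00119 to 0.00111, while the endothelial share was -0.00163 with 2000 UMIs per well. The cause was not tested for any of these.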
